A study of Mus musculus with 24 samples.

Results

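Id proteins and other inhibitors of basic helix-loop-helix (bHLH) transcription factors were followed in C2C12 cells, a mouse myoblast line that withdraws from the cell cycle and forms myotubes when serum is reduced. The set held 7 genes, Id1, Id2, Id3, Id4, Msc, Twist1 and Bhlhe40, and took in every probe set with exactly 1 annotated symbol among them. On the array design whose titles end in MA these were 11 of 22690 probe sets, standing for 7 of 12393 named genes. The design ending in MB held 0 among its 22575 probe sets, so all values of these genes come from the MA arrays. The groups were cells with pSuperR p68 shRNA in DM, cells with empty pSuperR vector in DM, p68 shRNA cells in GM and vector cells in GM, with 3 MA and 3 MB arrays each (24 arrays in all). All groups were C2C12 cells that carried pSuperR, so a cell without the plasmid was not among them. DM stands for differentiation medium and GM for growth medium. The hairpin RNA (shRNA) targets p68, an RNA helicase of the DEAD-box family whose gene is Ddx5. Total RNA was labelled with biotin, and 1 signal per probe set and array was deposited. The labels say neither how long cells stayed in DM nor whether they were clones or pools. They also do not call the replicates separate cultures, so the spread behind each p-value is that of these arrays and may be technical.

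Muscle genes are switched on by MyoD, myogenin and their relatives, which bind the E box (CANNTG) in DNA as dimers with the E proteins encoded by Tcf3, Tcf4 and Tcf12. Id proteins have the helix-loop-helix that forms dimers but lack the basic region that contacts DNA, so an E protein bound to an Id protein is kept off its sites. Id genes are high in growing myoblasts, are induced by bone morphogenetic proteins (BMPs) through Smad factors, and are turned down as myotubes form. Msc (musculin, also MyoR) and Twist1 do bind E boxes with E proteins and oppose MyoD there. Bhlhe40 is a bHLH repressor that binds the E box form CACGTG and has been described as an opponent of MyoD in myoblasts.

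The bases just upstream of Id3 and Id2, the members with the largest differences between the groups among those with a sequence, are shown because some of the genes described later, the Smads and other transcription factors known to act on Id genes, work through such promoters. Promoter sequences from RefSeq (GRCm38.p6) were matched for 4 of the 7 members, Id2, Id3, Id4 and Twist1. The 250 bases before the start of Id3 lie at chr4:136143572-136143821 on the plus strand, and those before Id2 at chr12:25096093-25096342 on the minus strand. Capitals mark matches on either strand to the motifs searched. These were the E box CANNTG and, within it, the form CACGTG bound by Bhlhe40 and the form CAGCTG bound by MyoD with E proteins. The others were GGCGCC as an element of BMP Smads, GTCTG as a Smad element, TGACG as a site of cyclic AMP response factors, and the CCAAT box.
Id3: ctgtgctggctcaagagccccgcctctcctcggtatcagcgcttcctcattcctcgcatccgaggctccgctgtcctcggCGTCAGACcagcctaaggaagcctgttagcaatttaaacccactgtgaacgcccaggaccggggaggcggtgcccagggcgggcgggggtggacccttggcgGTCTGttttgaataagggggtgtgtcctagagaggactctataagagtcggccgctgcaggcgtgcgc
Id2: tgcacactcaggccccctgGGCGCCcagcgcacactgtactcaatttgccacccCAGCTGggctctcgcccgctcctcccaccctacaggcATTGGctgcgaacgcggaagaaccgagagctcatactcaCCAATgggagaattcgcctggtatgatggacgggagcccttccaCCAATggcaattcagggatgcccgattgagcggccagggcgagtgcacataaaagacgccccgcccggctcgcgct

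In the Id3 window GTCTG was matched 167 to 163 bases before the start on the opposite strand, as CAGAC, and 68 to 64 bases before the start. TGACG was matched on the opposite strand 170 to 166 bases before the start, as CGTCA, and overlapped the CAGAC. The Id2 window held GGCGCC 231 to 226 bases before the start and CAGCTG, which is also a CANNTG, 196 to 191 bases before it. It further held CCAAT 3 times, the first as ATTGG. None of the motifs was matched in both windows. Among all 32851 promoter windows of the same length, 66.2% held CANNTG, 6.02% CACGTG, 13% CAGCTG, 9.59% GGCGCC, 42.2% GTCTG, 17.8% TGACG and 33.8% CCAAT. Both windows were 62.8% G and C, against a median of 52.4%. These matches describe the letters of the windows only.

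The arrays matched their labels in the genes that define the line. All 6 myoblast and muscle markers (Myod1, Des, Cdh15, Myf5, Pax7, Myog) were detected, and Myog averaged 5222 in DM p68 shRNA cells and 6860 in DM vector cells, against 60.94 in GM p68 shRNA cells and 77.82 in GM vector cells. Ddx5 had a mean signal of 326 in DM p68 shRNA cells and 540.8 in DM vector cells (log2 change -0.68 ± 0.15, adjusted p = 0.00677). In GM it averaged 372 in p68 shRNA cells and 464.3 in vector cells, a change of -0.31 ± 0.15 that did not pass (adjusted p = 0.287), so the labels of the GM groups are not borne out by a passing change of the targeted RNA. Mean correlations of an array with the others of its group lay between 0.951 and 0.983 in the MA design, DM vector replicate 3 being the lowest. Of the other cell types' markers, the summed adipocyte signal (4 of 5 markers on MA, 2 tested, Adipoq at 9.31 or lower) ran from 178.3 to 179.7 in DM p68 shRNA cells and from 152.7 to 231.1 in DM vector cells, against 313.4 to 373.7 in GM p68 shRNA cells and 272.1 to 333.3 in GM vector cells. Most of the adipocyte sum was Cebpa, with means of 143 and 146.7 in DM p68 shRNA and vector cells, against 288.3 and 241 in GM. Pparg, the other adipocyte marker tested, averaged 12.17 and 16.89 in DM p68 shRNA and vector cells, against 42.64 and 29.77 in GM. Fabp4 averaged 16.83 to 22.68 over the groups. The smooth muscle sum, mostly Acta2, ran from 7345 to 10080 in GM p68 shRNA cells and from 8278 to 9189 in GM vector cells. In DM it ran from 8476 to 10570 and from 7984 to 13160. Its tested members went both ways between media. Tagln averaged 304.6 and 371.2 in DM p68 shRNA and vector cells, against 1016 and 1308 in GM. Cnn1 averaged 6.519 and 11.66 in DM, against 79.5 and 46.82 in GM. Acta2 averaged 8439 and 9965 in DM, against 7428 and 6900 in GM. Smtn averaged 479.2 and 363.1 in DM, against 353.8 and 337.7 in GM. The part of these markers in the differences between media was not tested. In bulk RNA fewer cells that express a gene and less RNA per cell cannot be told apart.

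Signals are MAS5 intensities scaled by the authors to a trimmed mean of about 150, and changes are log2 differences of signal + 15 with their standard errors, from 1 limma fit to the 12 MA arrays. This scale understates the change of dim genes. Tests were run on probe sets with a signal of 30 or more in at least 3 arrays, and a probe set passed at a Benjamini-Hochberg adjusted p below 0.05. Of the 11 probe sets 5 were tested: 1 each of Id1, Id3 and Bhlhe40 and 2 of the 3 of Id2. The remaining 6, of Id2, Id4, Msc and Twist1, stayed under the filter and are given by their signals, with the unfiltered fit beside them where it is named.

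Among the 5 tested probe sets, 3 rose and 1 fell with p68 shRNA in DM, where 10.7% of the 14367 probe sets tested rose and 6.24% fell. With p68 shRNA in GM, 2 rose and 0 fell, against 3.99% and 2.57% of all. Between media, 0 rose and 4 fell in p68 shRNA cells (16.3% and 17.5% of all), and 1 rose and 4 fell in vector cells (23.9% and 25.4%). As 2 of the 5 probe sets are of Id2, the 3 that rose with p68 shRNA in DM stand for 2 genes. The 4 that fell between media stand for 3 genes in either kind of cell. The interaction, the change with p68 shRNA in DM minus that in GM, passed for 1 probe set, that of Bhlhe40, as it did for 9.95% of all. The shRNA comparison in DM and the DM comparison in vector cells share the DM vector arrays, so they are not independent of each other.

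**Figure D1:**
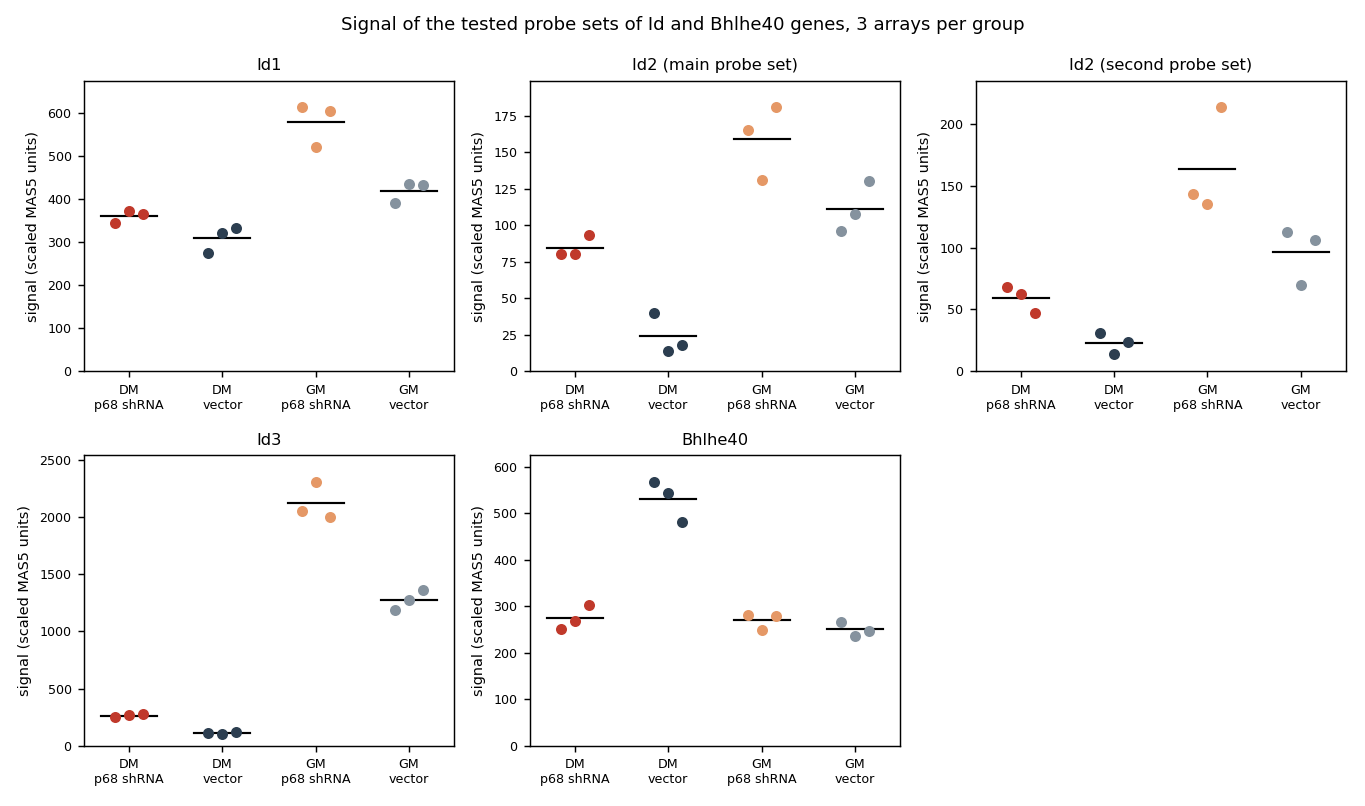
Signal (scaled MAS5 units, linear axis from 0) of the 5 tested probe sets on each MA array; points are arrays, the short bars are means of 3, and groups run from DM p68 shRNA and DM vector to GM p68 shRNA and GM vector. In Id1, Id2 and Id3 the 4 groups stand in 1 order with no overlap between neighbours, while Bhlhe40 is high in the DM vector arrays alone, at 480.7 to 568.

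Id3 had the widest range of the members. Its signal was 247.8, 266.2 and 276.6 in DM p68 shRNA cells, 114.3, 102.7 and 118.3 in DM vector cells, 2058, 2309 and 2004 in GM p68 shRNA cells, and 1189, 1274 and 1362 in GM vector cells. The shRNA arrays were the higher ones in each medium, every DM array lay below every GM array, and no pair of groups overlapped. In DM, Id3 was 2.36-fold as high in p68 shRNA cells as in vector cells (log2 change 1.14 ± 0.10, adjusted p = 5.27e-06). In GM it was 1.67-fold as high (0.73 ± 0.10, adjusted p = 0.000892). Thus Id3 rose with p68 shRNA in either medium. Its fall in DM left 12.4% of the GM signal in p68 shRNA cells (-2.94 ± 0.10, adjusted p = 3.89e-11) and 8.77% in vector cells (-3.35 ± 0.10, adjusted p = 5.02e-12). The difference between these falls, an interaction of 0.41 ± 0.15, did not pass (adjusted p = 0.102, 95% interval 0.09 to 0.72), and it did with array weights (0.48, adjusted p = 0.0166).

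Id2, which besides E proteins can bind the retinoblastoma protein and its relatives, was dimmer. Its brightest probe set read 80.17, 80.17 and 93.2 in DM p68 shRNA cells, 39.82, 13.83 and 18.22 in DM vector cells, 165.1, 130.8 and 180.7 in GM p68 shRNA cells, and 96.06, 107.6 and 130.5 in GM vector cells. Groups did not overlap, although the lowest GM p68 shRNA array and the highest GM vector array were only 130.8 and 130.5, and 2 of the 3 DM vector arrays were below the filter's signal of 30. With p68 shRNA in DM the signal averaged 84.5 ± 7.5, against 24.0 ± 13.9 in DM vector cells (SD, n = 3 each; log2 change 1.41 ± 0.21, adjusted p = 0.000395). In GM it averaged 158.9 ± 25.5 in p68 shRNA cells and 111.4 ± 17.5 in vector cells, a difference of 0.46 ± 0.21 that did not pass (adjusted p = 0.241, 95% interval 0 to 0.91). Id2 fell in DM by 0.80 ± 0.21 on the log2 scale in p68 shRNA cells (adjusted p = 0.00961) and by 1.75 ± 0.21 in vector cells (adjusted p = 8.04e-06).

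The second Id2 probe set gave the same calls in these comparisons. Its signals were 68.51, 62.46 and 46.94 in DM p68 shRNA cells, 31.17, 13.96 and 23.67 in DM vector cells, 143.2, 135 and 213.1 in GM p68 shRNA cells, and 112.7, 69.84 and 106.3 in GM vector cells. The rise with p68 shRNA in DM was 0.98 ± 0.22 (adjusted p = 0.00702), and the difference in GM was 0.68 ± 0.22 (adjusted p = 0.0905). The falls in DM were -1.25 ± 0.22 in p68 shRNA cells (adjusted p = 0.00057) and -1.56 ± 0.22 in vector cells (adjusted p = 4.15e-05). The probe sets were apart in the interaction, which was 0.95 ± 0.30 for the brighter one (adjusted p = 0.0619) and 0.30 ± 0.32 for the other (adjusted p = 0.626). Of the 2, only the brighter one's interaction crossed the threshold in any alternative. It passed in 4 of 20, among them without DM vector replicate 1 (1.22, adjusted p = 0.00513), the array with the highest Id2 signal of its group. The third Id2 probe set was not tested and ran from 8.44 to 32.82, with means of 17 in DM p68 shRNA cells and 13.8 in DM vector cells, against 28.6 in GM p68 shRNA cells and 30.6 in GM vector cells. Its p68 shRNA and vector arrays overlapped in each medium. With the filter lifted, limma gave 0.17 with p68 shRNA in DM (adjusted p = 0.671) and -0.07 in GM (adjusted p = 0.937). In DM against GM it gave -0.68 in vector cells (adjusted p = 0.00859) and -0.44 in p68 shRNA cells, which did not pass (adjusted p = 0.1).

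Id1, the Id family member most closely tied to BMP signals, had the smallest changes of the 3 Id genes tested, between media and with p68 shRNA. It read 345.3, 373.1 and 364.6 in DM p68 shRNA cells, 275.6, 320.6 and 332.1 in DM vector cells, 612.2, 520 and 604.2 in GM p68 shRNA cells, and 390.5, 434.1 and 431.2 in GM vector cells. The groups again did not overlap. With p68 shRNA in GM it averaged 578.8 ± 51.1, against 418.6 ± 24.3 in GM vector cells (SD, n = 3 each; log2 change 0.45 ± 0.11, adjusted p = 0.0245). This call was lost in 7 of 21 alternatives, which took the adjusted p from 0.00301 to 0.109: without trend (0.0515), with a replicate block (0.0667), and without GM p68 shRNA replicate 2 (0.0992) or 4 (0.0967) or GM vector replicate 1 (0.109), 3 (0.0649) or 4 (0.056). In DM, Id1 averaged 361 ± 14.2 in p68 shRNA cells and 309.4 ± 29.9 in vector cells, a difference of 0.22 ± 0.11 that did not pass (adjusted p = 0.212, 95% interval -0.02 to 0.45). DM left 62.4% of the GM signal in p68 shRNA cells (-0.66 ± 0.11, adjusted p = 0.000342) and 73.9% in vector cells (-0.42 ± 0.11, adjusted p = 0.00539). The interaction was -0.24 ± 0.16 (adjusted p = 0.414).

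Id1, both tested Id2 probe sets and Id3 thus stood in 1 order: GM p68 shRNA cells highest, then GM vector cells, then DM p68 shRNA cells, and DM vector cells lowest, with no overlap between neighbouring groups. Of all 14367 probe sets tested, 1.16% had this order without overlap, and 11.1% had it by their group means. On the log2 scale over the 12 arrays, Pearson's r was 0.90 between Id1 and Id3, 0.88 between Id2 and Id3 and 0.81 between Id1 and Id2, and 0.94 between the Id2 probe sets. These correlations describe shared group differences on shared arrays. Once group means were taken out, r was -0.12 for Id1 and Id3, 0.21 for Id2 and Id3 and -0.18 for Id1 and Id2. RNA quality, read as the log2 ratio of 3' to 5' control probes for Gapdh and Actb, differed by 0.007 between p68 shRNA and vector cells in DM on MA. In GM, where Id1 and Id3 rose with p68 shRNA, it lay between 0.01 and 0.039 in p68 shRNA cells and between 0.034 and 0.108 in vector cells, a difference of -0.046 between means. In vector cells it averaged -0.02 in DM and 0.073 in GM without overlap between arrays, and its part in the differences in GM and between media was not tested.

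**Figure D2:**
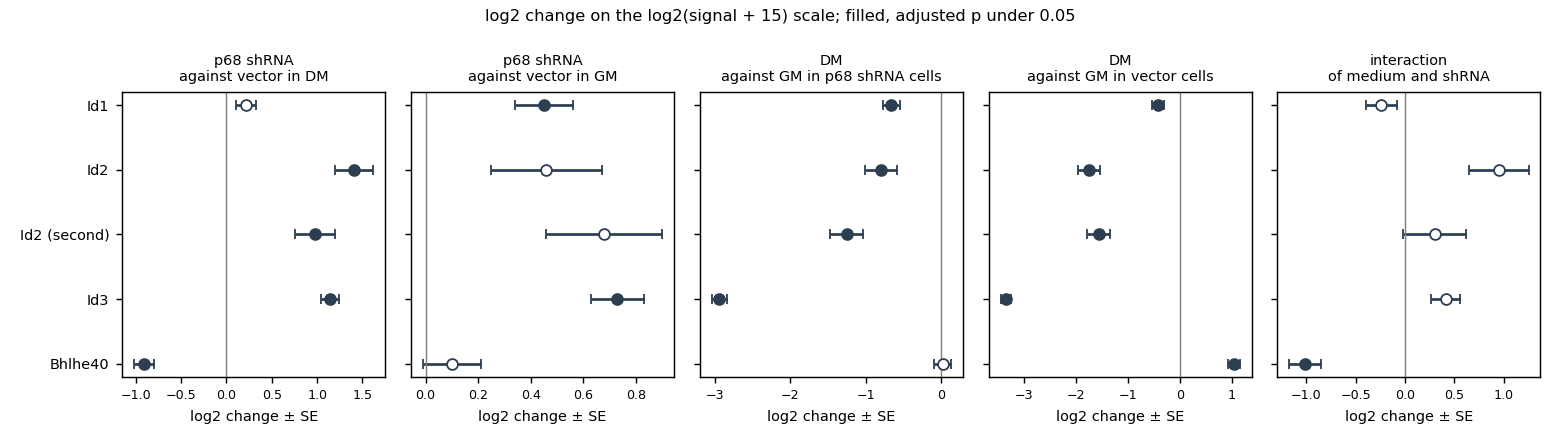
Change of each tested probe set in the 5 comparisons (log2 units of signal + 15, points with standard errors from the limma fit, each panel on its own axis); filled points passed at an adjusted p below 0.05. Id2 and Id3 lie right of 0 and Bhlhe40 left of it with p68 shRNA in DM (1.41, 1.14 and -0.91), and Bhlhe40 alone has a filled interaction (-1.01).

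Bhlhe40 fell with p68 shRNA in DM and rose with DM in vector cells, the opposite directions to Id2 and Id3. Its signal was 251.3, 269.5 and 303.4 in DM p68 shRNA cells, 568, 543.1 and 480.7 in DM vector cells, 281.2, 248.7 and 279.1 in GM p68 shRNA cells, and 267.1, 236.6 and 247.6 in GM vector cells. The DM vector arrays stood above all others, and each of the other groups overlapped its neighbour in rank. In DM, Bhlhe40 averaged 274.8 ± 26.5 in p68 shRNA cells and 530.6 ± 45.0 in vector cells (SD, n = 3 each; log2 change -0.91 ± 0.11, adjusted p = 7.7e-05). In vector cells DM brought a 2.12-fold rise over GM (1.04 ± 0.11, adjusted p = 2.75e-06). In p68 shRNA cells the DM and GM means were 274.8 and 269.7 (0.02 ± 0.11, adjusted p = 0.895), and the 95% interval of -0.22 to 0.27 lies wholly below the change in vector cells. In GM, p68 shRNA and vector cells averaged 269.7 ± 18.2 and 250.4 ± 15.4 (0.10 ± 0.11, adjusted p = 0.694, 95% interval -0.14 to 0.34). The interaction was -1.01 ± 0.16 (adjusted p = 0.00124) and passed in all 20 alternatives that gave one, at -1.08 to -0.93 with adjusted p from 9.6e-05 to 0.00554.

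Msc, Id4 and Twist1 were dim throughout. Msc, the myogenic repressor musculin, read 19.44, 33.28 and 18.49 in DM p68 shRNA cells, 22.29, 17.47 and 10.74 in DM vector cells, 1.674, 3.047 and 1.699 in GM p68 shRNA cells, and 2.34, 2.457 and 1.878 in GM vector cells. Its DM arrays thus all lay above its GM arrays, and in each medium the p68 shRNA and vector ranges overlapped. Among the MA probe sets tested, 25.1% lay higher in DM without overlap in p68 shRNA cells and 25.9% in vector cells. With the filter lifted, the DM change of Msc was 1.16 in p68 shRNA cells (adjusted p = 0.000307) and 0.87 in vector cells (adjusted p = 0.00152). The brightest of the 3 Id4 probe sets ran from 6.48 to 35.8 over the 12 arrays and the others from 1.33 to 13.2 and from 1.13 to 13.9. Twist1, whose protein binds both E proteins and MyoD, ran from 1.34 to 11.9. With no filter, neither Id4 nor Twist1 passed in any comparison (lowest adjusted p 0.226 for Id4 and 0.541 for Twist1). At such signals a low level cannot be told from none.

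**Figure D3:**
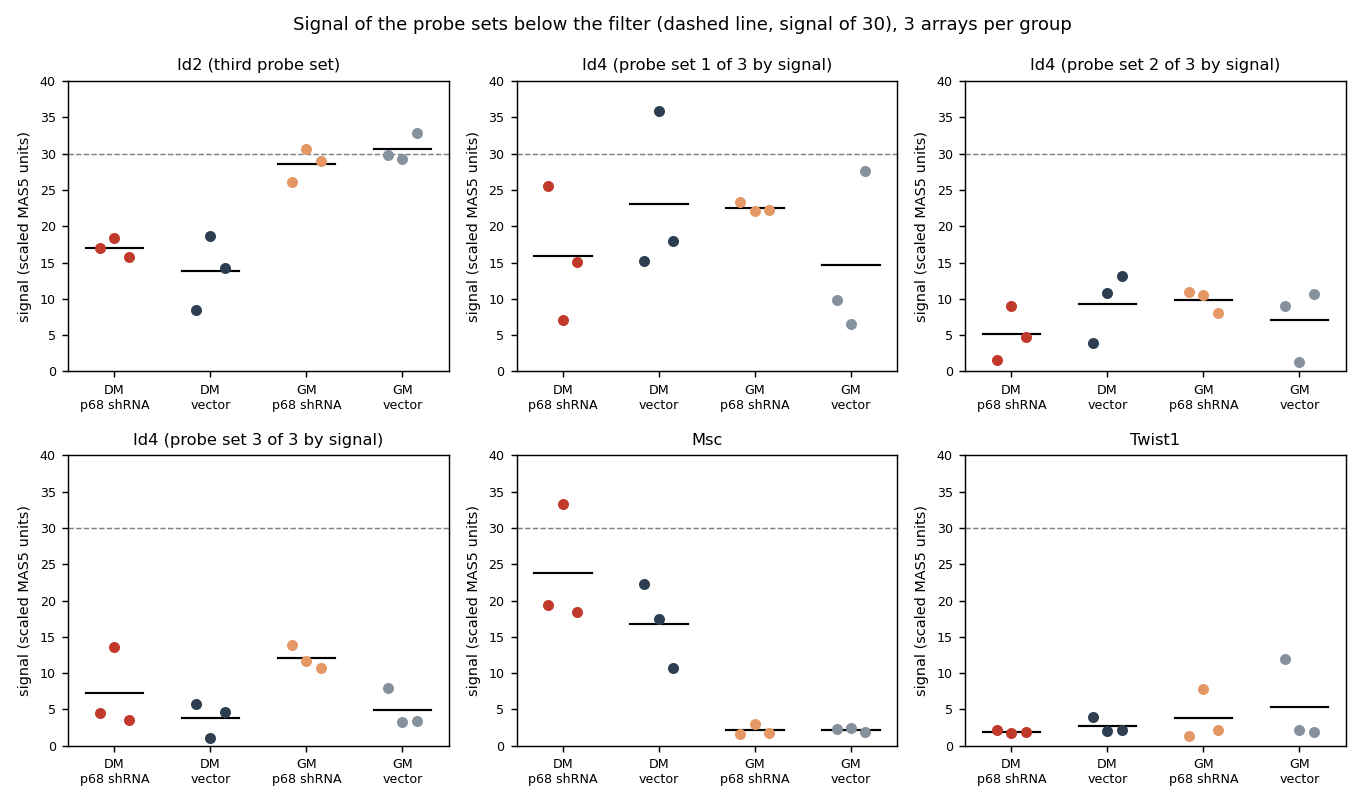
Signal (scaled MAS5 units, linear axis from 0) of the 6 probe sets under the filter on each MA array, with the filter's signal of 30 dashed; points are arrays and short bars are means of 3. Msc lies between 10.74 and 33.28 in DM and at 3.047 or lower in GM, and the third Id2 probe set is lower in DM than in GM. The Id4 and Twist1 arrays overlap between the groups compared, apart from the dimmest Id4 probe set in GM. It reads 10.74 to 13.89 in p68 shRNA cells and 3.257 to 7.995 in vector cells, and did not pass with no filter (adjusted p = 0.226 in limma).

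The E proteins, the partners that Id proteins bind, were described from all 3 of their genes, each tested. With p68 shRNA in DM 1 rose and 0 fell, against 10.7% and 6.24% of all MA probe sets tested. In GM 0 passed, against 6.56% of all. Tcf3, which encodes E12 and E47, rose with p68 shRNA in DM, averaging 310 ± 38.4 in p68 shRNA cells and 165.2 ± 26.3 in vector cells (SD, n = 3 each; 0.85 ± 0.15, adjusted p = 0.000934). In GM its means were 327.4 in p68 shRNA cells and 327.3 in vector cells (0.01 ± 0.15, adjusted p = 0.989). Its interaction passed at 0.85 ± 0.21 (adjusted p = 0.0176, and 0.0552 without DM p68 shRNA replicate 2), and its DM level in vector cells was below the GM level (-0.93 ± 0.15, adjusted p = 9.05e-05). A further Tcf3 probe set gave 0.51 ± 0.17 in DM, which did not pass (adjusted p = 0.0531), and an interaction of 0.56 ± 0.24, which did not pass either (adjusted p = 0.177). Tcf4 and Tcf12 did not pass with p68 shRNA in DM (0.40 ± 0.15, adjusted p = 0.0828, and 0.28 ± 0.22, adjusted p = 0.433), and no E protein gene did in GM, where 0 of 3 were also below an unadjusted p of 0.05.

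Of the 4 myogenic bHLH genes, the activators whose partners Id proteins take, Myod1, Myf5 and Myog were tested. None of them passed with p68 shRNA in either medium, against 16.9% of all MA probe sets in DM and 6.56% in GM. At an unadjusted p below 0.05, 1 of the 3, Myf5, was higher in each medium. Myod1 averaged 1582 ± 133 in DM p68 shRNA cells and 1822 ± 256 in DM vector cells (-0.20 ± 0.13, adjusted p = 0.359). Myog averaged 5222 ± 343 in DM p68 shRNA cells and 6860 ± 1788 in DM vector cells (-0.36 ± 0.17, adjusted p = 0.174).

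Of 12 genes that MyoD and E proteins activate through E boxes, all tested, 7 fell and 1 rose with p68 shRNA in DM. Over all MA probe sets tested, 6.24% fell and 10.7% rose. The median log2 change was -0.55 for the 12 genes, against 0.05 over all. Mef2c, a transcription factor that works with MyoD, averaged 30.1 ± 8.75 in DM p68 shRNA cells and 188.7 ± 87.9 in DM vector cells (SD, n = 3 each; -2.09 ± 0.29, adjusted p = 0.000182), and its other 4 probe sets fell as well. Tnni2, the fast muscle inhibitory troponin, fell by 1.28 ± 0.16 on the log2 scale (adjusted p = 5.94e-05), and its second probe set by 0.97 ± 0.30 (adjusted p = 0.0365). Ckm, the muscle creatine kinase, fell by 0.99 ± 0.14 (adjusted p = 0.000199), while its probe set on MB did not pass (-0.35 ± 0.26, adjusted p = 0.702). Chrng, the embryonic acetylcholine receptor subunit, fell by 0.83 ± 0.20 (adjusted p = 0.0085). Myh3, Chrnd and Des also passed, Chrnd in 17 of 21 alternatives (not without DM p68 shRNA replicate 1 or 2 or DM vector replicate 2, adjusted p up to 0.104 over all) and Des in 8 of 21 (not without DM p68 shRNA replicate 1 or 2, DM vector replicate 2 or 3 or any GM array, adjusted p up to 0.142). The other Des probe set was on the opposite side of 0 and did not pass (0.19 ± 0.17, adjusted p = 0.52). The 1 gene that rose was Cdh15, the adhesion protein M-cadherin (0.51 ± 0.14, adjusted p = 0.0173), and it did not pass without DM p68 shRNA replicate 2 (0.0729) or 3 (0.0573) or DM vector replicate 1 (0.0583).

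In GM, 3 of the 12 fell with p68 shRNA and 0 rose, against 2.57% and 3.99% of all (median -0.32, against 0.04 over all). The count that fell was 5 without DM vector replicate 1 or 3, with quantile normalization and with array weights. The 3 were Tnni2 (-1.43 ± 0.16, adjusted p = 9.83e-05), Cdh15 (-0.75 ± 0.14, adjusted p = 0.00512) and Ckm (-0.53 ± 0.14, adjusted p = 0.0338), the last passing in 11 of 21 alternatives and not without DM p68 shRNA replicate 2, GM p68 shRNA replicate 3 or 4 or any GM vector array (adjusted p up to 0.146 over all). Tnni2 and Ckm were dim in GM, with means of 5.60 and 30.2 in p68 shRNA cells and 40.2 and 49.9 in vector cells. The size of the Tnni2 difference in GM ran from -2.80 to -0.70 over the 21 alternatives, and its second probe set did not pass there (-0.16 ± 0.30, adjusted p = 0.831). The Ckm probe set on MB was on the opposite side of 0 in GM and did not pass (0.80 ± 0.26, adjusted p = 0.348). In DM against GM these genes rose in 12 of 12 cases in p68 shRNA cells (median 2.71), against 16.3% of all. In vector cells 11 of 12 rose (median 3.53), against 23.9% of all.

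**Figure D4:**
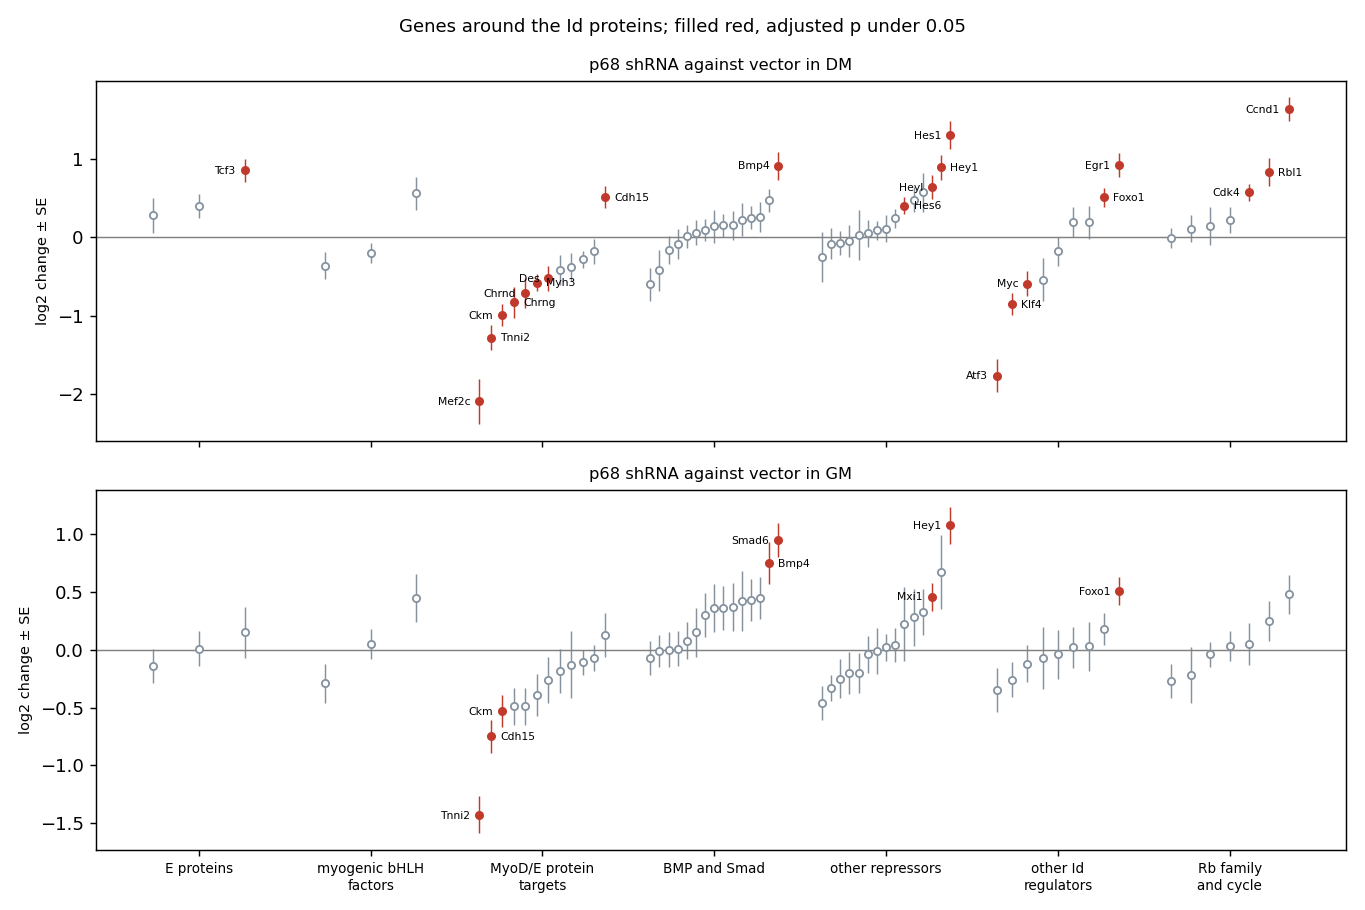
Change with p68 shRNA in DM (top) and in GM (bottom) of the tested genes of 7 lists around the Id proteins (log2 units of signal + 15, points with standard errors from the limma fit, sorted within each list); red filled points passed at an adjusted p below 0.05 and carry their symbols. In DM the targets of MyoD and E proteins lie mostly below 0 (median -0.55), while Tcf3, Bmp4, Hes1 and Ccnd1 lie above it.

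BMP and Smad genes, which act upstream of Id genes, were represented by 24 names, of which 22 were on the arrays and 15 were tested, 2 of them on MB only. With p68 shRNA in DM 1 rose and 0 fell (median 0.14), and in GM 2 rose and 0 fell (median 0.36). Over all MA probe sets 10.7% rose and 6.24% fell in DM, and 3.99% and 2.57% did in GM. In DM these genes thus rose no more often than any. Bmp4, a ligand, averaged 86.9 ± 9.2 in DM p68 shRNA cells and 39.2 ± 6.8 in DM vector cells (SD, n = 3 each; 0.91 ± 0.18, adjusted p = 0.0026). In GM it averaged 425.5 ± 113 in p68 shRNA cells and 243.9 ± 41.1 in vector cells (0.75 ± 0.18, adjusted p = 0.0223), and that call was lost in 5 of 21 alternatives (adjusted p up to 0.104): with a replicate block (0.0545) and without GM p68 shRNA replicate 2 (0.104) or 4 (0.0544) or GM vector replicate 1 (0.093) or 3 (0.103). By its means Bmp4 stood in the order of the Id genes, as did 11.1% of all MA probe sets tested. Smad6, an inhibitory Smad that BMP signals induce, averaged 240 ± 17.8 in GM p68 shRNA cells and 117.1 ± 7.3 in GM vector cells (0.95 ± 0.15, adjusted p = 0.00187). In DM its difference was 0.25 ± 0.15 (adjusted p = 0.305), and the interaction of -0.70 ± 0.21 did not pass (adjusted p = 0.0501).

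In DM against GM, 4 BMP and Smad genes rose and 4 fell in p68 shRNA cells, and 4 rose and 3 fell in vector cells. Over all MA probe sets 23.9% rose and 25.4% fell in vector cells, so the 15 genes moved there about as often as any, and 16.3% and 17.5% did in p68 shRNA cells. Of the 4 that fell in p68 shRNA cells 1 was Smurf1 on MB, where 2.57% of probe sets fell (-1.08 ± 0.18, adjusted p = 0.00095), and its second probe set did not pass (-0.56 ± 0.53, adjusted p = 0.733). In vector cells Bmp4 fell by 2.25 ± 0.18 on the log2 scale (adjusted p = 1e-07) and Smad6 by 1.15 ± 0.15 (adjusted p = 1.62e-05). Grem1, a secreted BMP antagonist, fell by 2.09 ± 0.21 (adjusted p = 9.59e-07), and Fst (follistatin) and Chrd (chordin), which also bind such ligands outside the cell, rose by 2.79 ± 0.18 (adjusted p = 9.13e-09) and 1.95 ± 0.21 (adjusted p = 1.92e-06). The antagonists thus moved in both directions. In p68 shRNA cells the values were -2.09 ± 0.18 for Bmp4, -1.85 ± 0.15 for Smad6, -2.32 ± 0.21 for Grem1, 2.48 ± 0.18 for Fst and 0.99 ± 0.21 for Chrd, all of which passed.

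The list of other repressors of myogenic bHLH activity held 20 genes, of which 15 were tested, 1 of them on MB. With p68 shRNA in DM 4 of the list rose and 0 fell (median 0.11), against 10.7% and 6.24% of all MA probe sets. With only the arrays compared, 2 rose. The 4 include Hes6, which is known to oppose Hes1 and to favour muscle differentiation. The Notch target Hes1 averaged 248.6 ± 20.7 in DM p68 shRNA cells and 92.8 ± 13.5 in DM vector cells (SD, n = 3 each; 1.30 ± 0.18, adjusted p = 0.000189), and its interaction was 1.50 ± 0.25 (adjusted p = 0.00203). Hey1 and Heyl, also Notch targets, rose by 0.89 ± 0.16 (adjusted p = 0.00113) and 0.64 ± 0.15 (adjusted p = 0.00969). Hes6 rose by 0.40 ± 0.11 (adjusted p = 0.0173), a call lost without DM p68 shRNA replicate 2 (0.0893) or DM vector replicate 2 (0.0713), and its second probe set did not pass (0.52 ± 0.18, adjusted p = 0.0606). In GM 2 rose and 0 fell, against 3.99% and 2.57% of all. They were Hey1 (1.08 ± 0.16, adjusted p = 0.00096) and Mxi1 (0.46 ± 0.12, adjusted p = 0.0338), a partner of Max that opposes Myc. The Mxi1 call was lost without any of the 6 GM arrays (adjusted p 0.0556 to 0.144), and its second probe set did not pass (0.31 ± 0.21, adjusted p = 0.469). The number that fell in GM was 2 with array weights and 1 with only the arrays compared or without DM vector replicate 3. Bhlhe41, the closest relative of Bhlhe40, averaged 55.2 ± 9.3 in DM p68 shRNA cells and 49.9 ± 4.4 in DM vector cells (0.11 ± 0.17, adjusted p = 0.731). In DM against GM, 5 of the list's 15 tested genes rose and 4 fell in p68 shRNA cells, against 16.3% and 17.5% of all MA probe sets. In vector cells 4 rose and 3 fell, against 23.9% and 25.4%. In vector cells Zeb1 (2.01 ± 0.12, adjusted p = 4.86e-09) and Twist2 (-1.76 ± 0.17, adjusted p = 9.38e-07) moved the most.

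Among 9 tested transcription factors known to act on Id genes, 2 rose and 3 fell with p68 shRNA in DM (median -0.18), against 10.7% and 6.24% of all MA probe sets. In GM 1 rose and 0 fell (median -0.04), against 3.99% and 2.57%. Egr1, an immediate early factor that acts on the Id1 promoter, averaged 738.1 ± 75.5 in DM p68 shRNA cells and 385.4 ± 70.7 in DM vector cells (SD, n = 3 each; 0.92 ± 0.15, adjusted p = 0.000578). Atf3, a stress factor that represses ID1 in human epithelial cells, averaged 50.6 ± 17.8 in DM p68 shRNA cells and 203.7 ± 26.2 in DM vector cells (-1.76 ± 0.21, adjusted p = 4.1e-05). Atf3 was at 3.59 in GM p68 shRNA cells and 3.20 in GM vector cells, and its interaction was -1.79 ± 0.29 (adjusted p = 0.00143). Klf4, a zinc finger factor, fell by 0.85 ± 0.14 on the log2 scale in DM (adjusted p = 0.000883) and Myc by 0.59 ± 0.16 (adjusted p = 0.0174). Myc did not pass without DM p68 shRNA replicate 1 (0.0818) or DM vector replicate 1 (0.065). The brightest probe set of Foxo1, a forkhead factor, rose by 0.51 ± 0.12 in DM (adjusted p = 0.00731) and in GM (adjusted p = 0.0179). The other 2 tested Foxo1 probe sets passed in neither medium, with changes of 0.34 and 0.41 in DM (adjusted p = 0.131 and 0.116) and 0.23 and 0.17 in GM (adjusted p = 0.415 and 0.65). The GM call was lost without GM p68 shRNA replicate 2 (0.0725) or 3 (0.0587) or GM vector replicate 3 (0.0829) or 4 (0.0598).

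The Rb family and cycle genes linked to Id2 were tested for 7 of 8 names. With p68 shRNA in DM, 3 rose and 0 fell (median 0.22), against 10.7% and 6.24% of all MA probe sets. Ccnd1 (cyclin D1), which with Cdk4 inactivates the Rb protein, averaged 391.5 ± 33.8 in DM p68 shRNA cells and 118.6 ± 32.3 in DM vector cells (SD, n = 3 each; 1.63 ± 0.15, adjusted p = 5.15e-06). In GM its means were 1194 ± 69.3 in p68 shRNA cells and 1446 ± 145 in vector cells (-0.27 ± 0.15, adjusted p = 0.342), and the interaction was 1.90 ± 0.21 (adjusted p = 7.47e-05). Rbl1, the Rb relative p107 to which Id2 can bind, rose by 0.83 ± 0.18 (adjusted p = 0.00497) and Cdk4 by 0.57 ± 0.11 (adjusted p = 0.00167) in DM. The Rbl1 probe sets on MB, at 0.78 ± 0.53 and -0.90 ± 0.63, did not pass (adjusted p = 0.674 and 0.682). In GM 0 of 7 passed in limma, against 6.56% of all, and 1 was higher at an unadjusted p below 0.05. Rb1 itself averaged 280.5 ± 82.7 in DM p68 shRNA cells and 254.4 ± 77.0 in DM vector cells (0.14 ± 0.24, adjusted p = 0.752).

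The genes whose log2 signals ran most like each member were taken from 8638 tested genes by Pearson's r over the 12 MA arrays, which share the same groups. For Id3 they were Ecm1 (r = 0.996), Prrx2 (0.995) and Aldh3a1 (0.995), and the lowest r was that of Ankrd2 (-0.989). For Id2 they were Naaa (0.98), Tanc1 (0.969) and Cyb5a (0.968), with Osbpl2 lowest (-0.97). For Id1 they were Rgs10 (0.97), Atp6v0d1 (0.969) and Myo1d (0.963), with Cavin4 lowest (-0.945). Bhlhe40 ran most like Bag1 (0.979), P2rx3 (0.97) and Emp2 (0.969), with Sgo1 lowest (-0.964). P2rx3 averaged 102.3 in DM vector cells and 3.378 or lower in every other group, so its r rests on the DM vector arrays. No gene appeared for more than 1 member. Rgs10 averaged 83.1 in DM p68 shRNA cells, 57.6 in DM vector cells, 180.4 in GM p68 shRNA cells and 116.9 in GM vector cells. That is the order of the Id genes, but Rgs10 was picked for its likeness to Id1 over these same arrays. The shared order thus follows from the choice.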

How the data were processed

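Linear intensities, a single one for each probe set on each array, were deposited by the authors, made with MAS5 per the submitters' processing notes. Its settings are not given in sources used here. Arrays had been scaled to a trimmed mean of 150.1 (MA) and 150 (MB). Arrays give no molecule counts, so their number limits precision.

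Groups and replicate numbers came from the titles. Probe sets were named through the platform annotation. Leaving out 64 controls of the 22690 on MA, 20380 had 1 symbol, 691 several and 1555 none. The log2(signal + 15) of probe sets with a signal of 30 or more in at least 3 of 12 arrays (14367 MA, 19303 MB) was fitted in limma 3.58.1 (R 4.3.3) with 4 group means, 8 residual degrees of freedom, eBayes with trend and Benjamini-Hochberg adjustment per design at 0.05. The median residual SD was 0.214 (MA) and 0.523 (MB). An exact permutation test of 3 against 3 cannot go below 0.1.

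Named were all members, Ddx5, markers, up to 4 genes per list and comparison (the largest changes among those passing, else the highest mean) and the 3 genes most like each member plus the least like. Bhlhe41, Rb1, list genes given where they did not pass, and those beyond this rule were picked with their values in view. The brightest probe set stood for a list gene. The members and lists were chosen with earlier results of these data known. In simulated data with 14367 probe sets, each at its residual SD over all 4 MA groups, 100 changes of each size were put into the DM p68 shRNA arrays. Of these, 77% of log2 1 and 97% of log2 2 were recovered. Among calls 4.9% were false, and 0 were called in a comparison without changes. Noise was drawn independently and alike for all arrays, so these rates need not hold for the deposited arrays. Alternatives were pseudocounts of 1 and 50, no filter or one at 100, quantile normalization, array weights, no trend, a replicate block, only the arrays compared, and leaving out each array.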

Additional observations from a re-analysis of the deposited data

Results flagged for a closer look

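Bhlhe40 had a different response to p68 shRNA in the 2 media, by the test of the interaction itself: the change with p68 shRNA in DM minus that in GM was -1.01 (adjusted p = 0.00124). Its 3 DM p68 shRNA arrays all lay below the 3 DM vector arrays, as did those of 12.3% of all MA probe sets tested. In GM its p68 shRNA and vector arrays overlapped.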

How the results depend on the processing

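Over 550 values of member probe sets under the alternatives, 531 kept their direction and their side of the threshold, 7 calls were lost (all of Id1 with p68 shRNA in GM), 9 were gained and 3 changed direction. Those 3 were all Bhlhe40 in DM against GM in p68 shRNA cells, a change of 0.02 that never passed: 0 with array weights and, over the arrays left out in turn, -0.047 to 0.082. The count of member probe sets that passed the interaction was 2 with a pseudocount of 1 or a filter at a signal of 100 and 3 with array weights, against 1, and 1 to 2 with arrays left out; with p68 shRNA in GM it was 1 without trend, against 2, and 1 to 2 with arrays left out. In the MA design the count for p68 shRNA in DM, 2430, became 4101 with array weights and 1573 with only the arrays compared; that in GM, 942, became 1879 with array weights and 409 to 1467 with arrays left out; the interaction's 1430 became 2919 with array weights and 913 to 2050 with arrays left out. In MB, p68 shRNA in DM gave 226, but 19 without trend, 101 with only the arrays compared and 125 to 229 with arrays left out; in GM 53, but 102 with quantile normalization, 95 with array weights, 9 without trend and 14 to 71 with arrays left out; DM against GM in p68 shRNA cells 936, but 527 without trend; the interaction 75, but 115 with quantile normalization, 0 without trend (1479 at an unadjusted p below 0.05) and 36 to 81 with arrays left out. The cause was not tested; where arrays are left out or only those compared are fitted, fewer samples enter. Deviations of same-numbered arrays correlated at -0.139 to 0.293 over 9 MA pairs, 5 of them above 0.1, and at -0.039 to 0.028 over 12 MB pairs. The main fit treated the arrays as unpaired, and these values do not settle whether the numbers pair the MA arrays. With the replicate block, Id1 with p68 shRNA in GM did not pass (0.39, adjusted p = 0.0667), the second Id2 probe set did (0.825, adjusted p = 0.0205), and no other member call changed. Dim signals limit what can be read from Msc, Id4, Twist1 and the third Id2 probe set.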
